A study of Mus musculus with 4 samples.

Results

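Tumour nuclei with the highest RNA of 7 growth genes were examined in grafts of CT26, a mouse colon carcinoma line, that either lacked Sun1 or carried it. The 7 genes were Srm, Npm3, C1qbp, Eif5a, Cacybp, Tomm5 and Ung. Nuclei with at least 500 unique molecular identifiers (UMIs, counted RNA molecules), 300 or more genes and no more than 20% mitochondrial UMIs were taken. A tumour gate then kept those with at least 5 UMIs of Hmga2 per 10000 and at most 1 UMI of Ptprc, the pan-leukocyte gene Cd45. Each gated nucleus was scored by its summed UMIs of the 7 genes per 10000 UMIs, and the 12% with the highest score over both libraries pooled formed the growth group, so that its members were chosen by these RNA values. It held 438 of 3651 gated nuclei, from 5517 nuclei that passed the filters and 5859 in all. The other 3213 gated nuclei served for comparison.

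A growing cell has to build ribosomes, and that work starts in the nucleolus. RNA polymerase I transcribes the ribosomal RNA precursor there, box C/D and box H/ACA ribonucleoproteins modify it, and many assembly factors fold and cut it into the small and large subunits. Ribosomal proteins are made in the cytoplasm, carried into the nucleus and built in. In cancer cells this programme is closely tied to the transcription factor Myc, whose known targets include genes of ribosome assembly, nucleotide synthesis and polyamine synthesis. The 7 scored genes touch several of these steps. Srm encodes spermidine synthase, and spermidine is the substrate for the hypusine residue of Eif5a, a translation factor that helps ribosomes through difficult stretches. Npm3 is a nucleoplasmin-family histone chaperone of the nucleolus. C1qbp is a mitochondrial matrix protein needed for mitochondrial translation, and Tomm5 is a small subunit of the outer-membrane import pore. Cacybp binds the ubiquitin ligase Siah1, and Ung removes uracil from DNA.

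The Sun1_KO tumours came from CT26 cells with Sun1 knocked out, and the Sun1_WT tumours from CT26 cells with wild-type Sun1. Sun1 spans the inner membrane of the nucleus and, within the LINC complex, ties it to the cytoskeleton. Both kinds of cell were injected under the skin of the right flank of BALB/c mice, tumours were taken on day 14, and RNA and open chromatin were read from the same nuclei, which gave 1 RNA and 1 accessibility library per genotype, 4 libraries in all. The knockout was in the injected cells only, so host cells in the tumours kept Sun1, and the labels do not say whether the line was 1 clone, which part of Sun1 was deleted, or how many mice were pooled. With 1 library of each kind per genotype, no difference between genotypes or between groups of nuclei could be tested against replicates. Intervals are 95% and cover counting error only. They are exact, except the log-normal intervals of the share ratio and of the ratio of ratios.

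The RNA libraries held 35471291 UMIs in 2404 Sun1_KO nuclei and 53707675 UMIs in 3455 Sun1_WT nuclei. Sun1 RNA in the growth group was 43.7 UMIs per 1000000 non-mitochondrial UMIs (CPM; 60 UMIs) in Sun1_KO and 101 CPM (700 UMIs) in Sun1_WT. In the other gated nuclei it was 66.0 CPM in Sun1_KO and 106 CPM in Sun1_WT. Sun1 RNA was lower in the library labelled Sun1_KO in both groups but not near 0, and UMIs from a part of the transcript that was not deleted would be counted here. No growth-group barcode occurred in both libraries, and 3 gated barcodes did.

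Nuclei of the growth group made up 5.96% of the gated nuclei in Sun1_KO (80 of 1343, interval 4.75% to 7.36%) and 15.5% in Sun1_WT (358 of 2308, interval 14.1% to 17.1%). The share in Sun1_KO was 0.384 times that in Sun1_WT (0.304 to 0.485). Over all gated nuclei the score had a median of 4.36 in Sun1_KO and 6.66 in Sun1_WT, and 12% of nuclei lay above 9.60 in Sun1_KO and above 13.0 in Sun1_WT. The limit cut a continuous slope, because the lowest member and the highest non-member both scored 12.03, and 103 members lay within 1 above the limit while 142 non-members lay within 1 below it. Among members the median score was 14.1 in Sun1_KO and 14.5 in Sun1_WT, and the highest score was 34.4. These scores chose the group and are descriptions. The size of the share ratio moved with the gate and the depth. It was 0.777 with a stricter gate (no Ptprc UMI and at most 1 UMI over the macrophage, T-cell and NK markers), 0.536 when every nucleus was thinned to 3000 UMIs, and 0.276 among nuclei with at least 3000 UMIs and 20000 accessibility counts, limits chosen after seeing the data. It stayed under 1 in each of these.

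**Figure D1:**
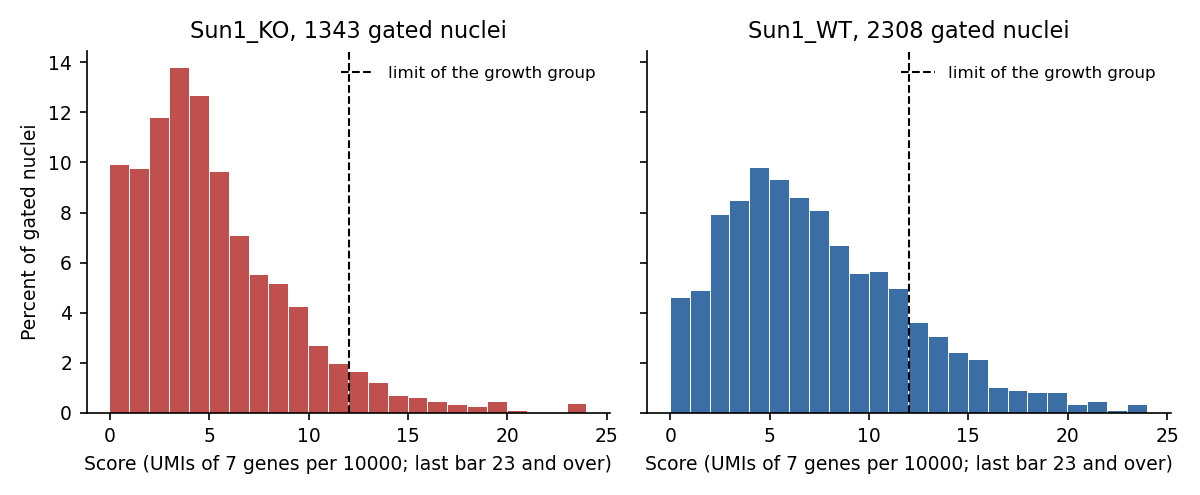
Score of the 7 growth genes (UMIs per 10000 UMIs, horizontal axis) against the percent of gated nuclei of each library (vertical axis), for Sun1_KO on the left and Sun1_WT on the right, with the limit of the growth group as a dashed line. Both distributions fall smoothly across the limit, with 5.96% of Sun1_KO and 15.5% of Sun1_WT nuclei above it.

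Some members of the Sun1_KO group were shallow. Under 3000 UMIs lay 15 of 80 members and 59 of 1263 other gated nuclei in Sun1_KO, against 12 of 358 members and 61 of 1950 other nuclei in Sun1_WT. A single UMI of a scored gene was enough for membership in 9 Sun1_KO and 2 Sun1_WT members. The median depth was 16382 UMIs in members and 16163 in other gated nuclei of Sun1_KO, and 20251.5 and 16526 in Sun1_WT. Accessibility counts were under 20000 in 35 of 80 members (43.75%) and 12.2% of other nuclei in Sun1_KO, against 15.6% of members and 12.5% of other nuclei in Sun1_WT. These low-accessibility members of Sun1_KO carried more ribosomal protein RNA (217968 CPM) than the 45 others (109500 CPM), and their part in the results was not tested. Results are therefore also given for nuclei with at least 3000 UMIs and 20000 accessibility counts where they moved. The doublet caller marked 2 Sun1_KO and no Sun1_WT nuclei and had not worked, so no nucleus was removed as a doublet.

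The gate left little RNA of leukocytes in the group. Summed over 16 macrophage markers, it was 112 CPM in members and 196 CPM in other gated nuclei of Sun1_KO, and 170 and 176 CPM in Sun1_WT. In nuclei with at least 2 Ptprc UMIs and no Hmga2 UMI, taken as a host comparison, the same sum was 13448 CPM in Sun1_KO and 18506 CPM in Sun1_WT. The 12 T-cell markers summed to 11.7 CPM in Sun1_KO members, with Cd4, Cd8a, Themis and Bcl11b at 0, and to 8.24 CPM in Sun1_WT members, where Bcl11b was also at 0. The 11 fibroblast and mural markers summed to 182 CPM in members and 313 CPM in other nuclei of Sun1_KO, and to 232 and 318 CPM in Sun1_WT. The 8 tumour markers, led by Hmga2, summed to 4267 CPM in members and 6023 CPM in other nuclei of Sun1_KO, and to 3932 and 4434 CPM in Sun1_WT. The 10 NK-cell markers summed to 7.28 CPM in Sun1_KO members and 11.6 CPM in Sun1_WT members. Of these markers, 5 were at 0 in Sun1_KO members and 2 in Sun1_WT members. The 8 endothelial markers summed to 20.4 CPM in Sun1_KO members and 31.2 CPM in Sun1_WT members, with Cdh5 and Vwf at 0 in both. The 8 neutrophil markers summed to 17.5 CPM in members and 12.1 CPM in other nuclei of Sun1_KO, and to 12.4 and 7.60 CPM in Sun1_WT, and the 8 keratinocyte and muscle markers to 16.8 and 27.5 CPM in Sun1_KO, and 26.4 and 25.8 CPM in Sun1_WT. Hmga2 and Ptprc were used by the gate and are no check of it.

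Promoter sequences of genes that set the group or were high in it are shown to let the accessibility values below be read against the DNA. They are from RefSeq on GRCm38.p6, the assembly of mm10, give the 250 bases before the annotated start in lower case, 5′ to 3′ on the gene's strand, and matched 6 of the 7 scored genes. Capitals mark CACGTG, the E-box bound by Myc and its partners, and CCGGAAG, the core site of ETS-family factors. Both were searched on both strands and do not overlap each other.
Npm3, chr19:45749566-45749815, minus strand: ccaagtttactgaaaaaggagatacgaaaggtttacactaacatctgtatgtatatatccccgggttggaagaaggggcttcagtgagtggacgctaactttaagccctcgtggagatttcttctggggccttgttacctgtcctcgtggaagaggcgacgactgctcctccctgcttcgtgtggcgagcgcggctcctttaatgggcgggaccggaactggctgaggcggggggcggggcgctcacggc
C1qbp, chr11:70983027-70983276, minus strand: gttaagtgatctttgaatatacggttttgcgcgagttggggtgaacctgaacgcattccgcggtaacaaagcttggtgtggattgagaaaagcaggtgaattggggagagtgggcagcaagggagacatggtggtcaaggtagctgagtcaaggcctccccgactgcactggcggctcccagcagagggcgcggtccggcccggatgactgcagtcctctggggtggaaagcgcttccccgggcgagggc
Nhp2, chr11:51619523-51619772, plus strand: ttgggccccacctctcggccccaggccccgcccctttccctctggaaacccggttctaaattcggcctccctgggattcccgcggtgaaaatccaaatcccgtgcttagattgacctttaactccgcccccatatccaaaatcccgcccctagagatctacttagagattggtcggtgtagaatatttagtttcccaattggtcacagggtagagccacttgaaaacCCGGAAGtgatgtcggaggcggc
Eif5a, chr11:69921443-69921472, minus strand: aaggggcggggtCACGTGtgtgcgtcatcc
Eif5a, chr11:69920791-69920820, minus strand: gcgctgcgcggcCACGTGaggtgggggagg
Nhp2, a box H/ACA protein described below, carries the ETS core close to its start, and 2 E-boxes lie before annotated starts of Eif5a that are inside the span of its longest transcript, of which 30 bases each are shown. CACGTG stood in 9.59% of 73 windows of ribosome biogenesis genes and in 6.02% of all 32851 windows, and in 8.42% of the windows of genes compared here. CCGGAAG stood in 31.5% of the windows of ribosome biogenesis genes, against 6.91% of all windows and 14.6% of those of genes compared. It stood in 41.4% of 29 proteasome windows and in none of 24 windows of matrix genes. The printed windows of Npm3 and C1qbp held neither. The windows of Cacybp, Tomm5, Ung, Rrp9, Nop16 and Lyar, not printed, held neither as well. Among the 6 matched scored genes only Eif5a held a match. A match is only a run of letters, and none of these was read as a bound site.

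All 7 scored genes were higher in members of both libraries, as the rule requires, and their values are descriptions. Eif5a (chr11:69916712-69921958) stood at 704 CPM in members and 215 CPM in other gated nuclei of Sun1_KO, and at 659 and 268 CPM in Sun1_WT. It gave 40.7% of the score's UMIs in Sun1_KO members and 40.1% in Sun1_WT members, so it weighed most in the choice. Srm (chr4:148591513-148594619) stood at 206 CPM in members and 62.4 CPM in other nuclei of Sun1_KO, and at 193 and 76.8 CPM in Sun1_WT. C1qbp (chr11:70977846-70983026) was at 211 and 67.3 CPM in Sun1_KO, and at 190 and 84.6 CPM in Sun1_WT. Cacybp (chr1:160202367-160212892) was at 276 and 102 CPM in Sun1_KO and at 291 and 122 CPM in Sun1_WT. The nucleolar chaperone and the import subunit behaved alike, with Npm3 (chr19:45747734-45749565) at 151 and 47.0 CPM in Sun1_KO and 131 and 56.0 CPM in Sun1_WT. Tomm5 (chr4:45105209-45108113) was at 162 and 57.5 CPM in Sun1_KO and 163 and 77.9 CPM in Sun1_WT. Ung (chr5:114130366-114139321) was the rarest, with 30 UMIs in Sun1_KO members and 114 in Sun1_WT members. At least 5 of the 7 genes were detected in 61 of 80 Sun1_KO members and 325 of 358 Sun1_WT members.

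The 7 genes were only loosely linked nucleus by nucleus. Spearman's rho between pairs of them, per UMI over the 1269 Sun1_KO and 2235 Sun1_WT gated nuclei with at least 3000 UMIs, had a median of 0.21 in Sun1_KO and 0.22 in Sun1_WT, and the highest was that of Srm and Eif5a at 0.39 in Sun1_KO and 0.43 in Sun1_WT. Nuclei of 1 library share its depth and preparation, and the values are descriptions. When each nucleus' UMIs were divided at random into 2 equal parts, and 1 part chose the members while the other was measured, Eif5a was 575 CPM in members and 223 CPM in other nuclei of Sun1_KO, and 579 and 288 CPM in Sun1_WT. On the log2 scale the 7 genes were then 1.12 to 1.56 higher in Sun1_KO and 0.81 to 1.36 higher in Sun1_WT. These differences were smaller than in all UMIs except for Ung in Sun1_WT, which was 1.36 higher there and 1.26 in all UMIs. Both parts came from the same nuclei, and the same 7 genes chose the members. A gene that varies between nuclei is then high in both parts, so these values too are descriptions and no independent support.

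Across the 11000 genes compared (at least 100 UMIs in gated nuclei of each library, scored and mitochondrial genes aside), 306 (2.78%) were at least 1.5-fold higher in members in both libraries and 698 (6.35%) were at least 1.5-fold lower in both. In Sun1_KO alone 11.7% were higher and 26.4% lower, and in Sun1_WT alone 5.12% were higher and 8.13% lower. The median log2 ratio of all genes was −0.23 in Sun1_KO and −0.03 in Sun1_WT. TMM scaling (trimmed mean of M-values) moved the Sun1_KO median to −0.02, and Sun1_KO ratios are read against these values. Across genes, the ratios of the libraries had a Pearson correlation of 0.666 and a Spearman correlation of 0.688, with genes not being independent replicates. Below, a gene's values without a unit are log2 ratios of members over other gated nuclei, in Sun1_KO first and Sun1_WT second, unless a genotype ratio is named.

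Genes of ribosome assembly were higher in members of both libraries. Of 79 genes of the ribosome biogenesis list, 36 were at least 1.5-fold higher in both libraries, beside 2.78% of all genes, none was lower in both, and 75 were above 0 in both. The list's median log2 ratio was 0.59 in Sun1_KO and 0.69 in Sun1_WT, and 0.62 and 0.68 with at least 3000 UMIs and 20000 accessibility counts. Its summed RNA was 8303 CPM in members and 5358 CPM in other gated nuclei of Sun1_KO, and 8714 and 5420 CPM in Sun1_WT. Nucleus by nucleus the members overlapped the others. The sum per 10000 UMIs ran from 19.0 through a median of 74.1 to 106 in Sun1_KO members and had a median of 43.3 and a highest value of 126 in other Sun1_KO nuclei. In Sun1_WT it ran from 24.4 through 78.3 to 135 in members, with a median of 45.1 and a highest value of 139 in others. The level differed little with accessibility depth, at 8559 CPM in Sun1_KO members with at least 20000 accessibility counts and 8066 CPM in those below.

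Among the modification genes, Nhp2 (chr11:51619773-51623718), which with Nop10, Gar1 and dyskerin (Dkc1) forms the box H/ACA core that makes pseudouridine, was at 154 CPM in members and 60.9 CPM in other nuclei of Sun1_KO, and at 135 and 64.4 CPM in Sun1_WT. Its log2 ratio was 1.33 (1.12 to 1.55) in Sun1_KO and 1.06 (0.95 to 1.18) in Sun1_WT. The partners were higher too, with Nop10 at 1.58 and 0.73, Gar1 at 0.75 and 0.86, and Dkc1 at 0.63 and 0.97 in Sun1_KO and Sun1_WT. For the box C/D particle, which guides ribose methylation, the methyltransferase fibrillarin (Fbl) was at 173 CPM in members and 70.7 CPM in other nuclei of Sun1_KO, and at 146 and 81.8 CPM in Sun1_WT. Its scaffold genes lay below the list's median, since Nop56 was at 0.48 in Sun1_KO and 0.58 in Sun1_WT and Nop58 at 0.25 and 0.58.

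Factors of the small subunit included Rrp9, whose lower interval bounds were among the highest of all genes. Rrp9 (chr9:106477309-106485415) encodes a protein of the U3 particle. It was at 52.4 CPM in members and 20.6 CPM in other nuclei of Sun1_KO, and at 40.2 and 16.9 CPM in Sun1_WT. Its log2 ratio lay between 0.97 and 1.71 in Sun1_KO and between 1.04 and 1.46 in Sun1_WT. Pno1, an assembly factor of the small subunit, was at 1.24 and 0.95, Rrp12 at 0.86 and 1.17, Emg1 at 1.09 and 0.63 and Ltv1 at 0.98 and 0.87 in Sun1_KO and Sun1_WT. The U3 processome genes Utp20 (0.28 and 0.52), Utp4 (0.49 and 0.48), Wdr43 (0.30 and 0.62) and Heatr1 (0.30 and 0.73) were higher by smaller amounts, under 1.5-fold in Sun1_KO.

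Factors of the large subunit varied. Nop16 (chr13:54584191-54590097), a nucleolar protein of large-subunit assembly, was at 56.8 CPM in members and 22.0 CPM in other nuclei of Sun1_KO, and at 48.6 and 22.3 CPM in Sun1_WT. Its log2 ratio was 1.37 (1.01 to 1.72) in Sun1_KO and 1.12 (0.93 to 1.31) in Sun1_WT. Mrto4, which holds the place of the stalk protein on the growing subunit, was at 1.07 and 0.99, Nip7 at 0.98 and 0.96, Rrs1 at 0.86 and 0.99, and Ebna1bp2 at 0.98 and 0.94 in Sun1_KO and Sun1_WT. Of the PeBoW complex, Bop1 was at 0.79 and 1.00 and Pes1 at 0.79 and 0.74, while Wdr12 was at 0.19 in Sun1_KO and 0.73 in Sun1_WT. Brix1 (0.19 and 0.63), Noc3l (0.06 and 0.51) and Gnl2 (0.02 and 0.36) were near 0 in Sun1_KO. Eif6, which keeps the new large subunit from joining too early, was at 0.93 and 0.73. The export adaptor Nmd3 was not higher in both, at −0.28 (−0.62 to 0.04) in Sun1_KO and 0.32 (0.19 to 0.45) in Sun1_WT. With Ddx10 (−0.29 and 0.02) and Nol10 (−0.28 and 0.37) it was at the low end of the list.

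Abundant nucleolar proteins gave the firmest values. Npm1, the major nucleolar chaperone, was at 999 CPM in members and 511 CPM in other nuclei of Sun1_KO, and at 1013 and 618 CPM in Sun1_WT, with log2 ratios of 0.97 (0.89 to 1.05) and 0.71 (0.67 to 0.75). Nucleolin (Ncl) was at 840 and 443 CPM in Sun1_KO and at 765 and 435 CPM in Sun1_WT. Nolc1, a chaperone of small nucleolar particles, was at 0.79 and 1.03, and the helicase Ddx21 at 0.72 and 0.98 in Sun1_KO and Sun1_WT. Lyar (chr5:38220471-38234306), a nucleolar zinc-finger protein, was at 132 and 61.2 CPM in Sun1_KO and at 152 and 76.0 CPM in Sun1_WT. In each of these genes members were higher in both libraries by intervals that did not reach 0.

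**Figure D2:**
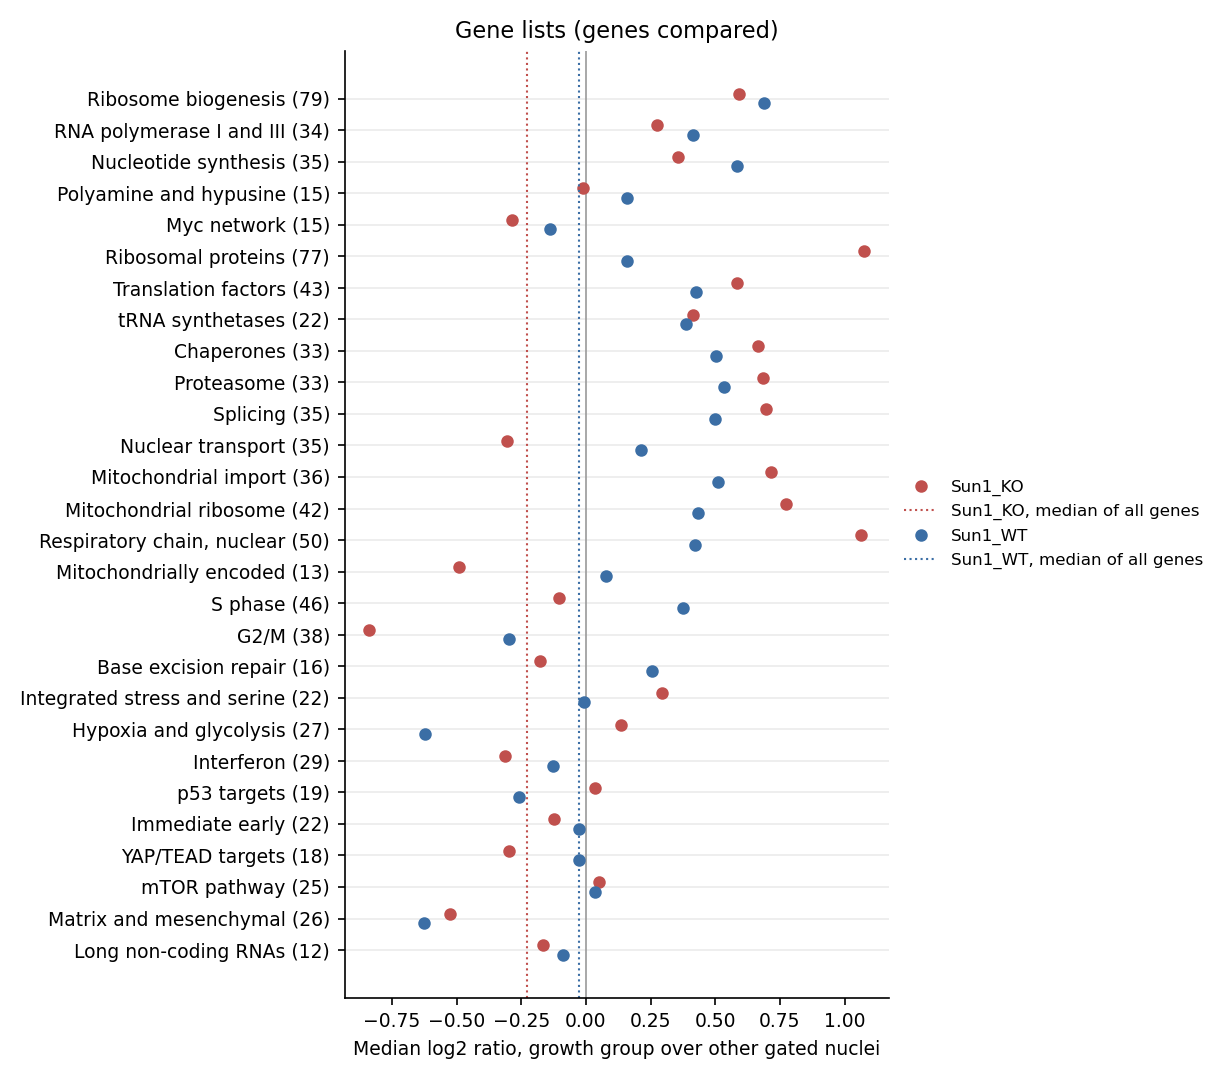
Median log2 ratio of the growth group over other gated nuclei (horizontal axis) for each gene list, with the number of genes compared in brackets, in Sun1_KO (red) and Sun1_WT (blue), and dotted lines at the medians of all genes (−0.23 and −0.03). Ribosome biogenesis is at 0.59 in Sun1_KO and 0.69 in Sun1_WT, while ribosomal proteins are at 1.08 in Sun1_KO and 0.16 in Sun1_WT, and matrix genes are below 0 in both.

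The ribosomal proteins themselves did not follow the assembly factors in the same way. None of 77 genes was at least 1.5-fold higher in both libraries, since all 77 were so in Sun1_KO, beside 11.7% of all genes, and none in Sun1_WT, beside 5.12%. Their summed RNA was 165880 CPM in members and 79863 CPM in other nuclei of Sun1_KO, and 145389 and 130486 CPM in Sun1_WT. The median log2 ratio was 1.08 in Sun1_KO and 0.16 in Sun1_WT. In Sun1_KO nuclei with at least 3000 UMIs and 20000 accessibility counts the median was 0.48. Rpl35, a large-subunit protein, stood at 1737 CPM in members and 506 CPM in other nuclei of Sun1_KO, and at 667 and 574 CPM in Sun1_WT. Rps15a, of the small subunit, was at 2133 and 775 CPM in Sun1_KO, and at 1521 and 1489 CPM in Sun1_WT. Summed over the list, the lowest of the 4 levels was that of the other Sun1_KO nuclei. Many ribosomal protein genes have near-identical processed copies, and the sources used here do not give how reads shared with them were counted.

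Translation factors were higher in smaller number. Of 43 genes 7 were at least 1.5-fold higher in both libraries, beside 2.78% of all genes, and the median log2 ratio was 0.58 in Sun1_KO and 0.42 in Sun1_WT. Eif4a1, the helicase of cap-dependent initiation, was at 417 CPM in members and 187 CPM in other nuclei of Sun1_KO, and at 346 and 217 CPM in Sun1_WT. Eif3i, a subunit of the initiation factor eIF3, was at 124 CPM in members and 52.1 CPM in other nuclei of Sun1_KO, and at 109 and 78.0 CPM in Sun1_WT. Eif4g3 lay lowest, at −0.88 and 0.01 on the log2 scale. None of 22 tRNA synthetase genes was past 1.5-fold in both, with medians of 0.42 in Sun1_KO and 0.39 in Sun1_WT. Hars, which charges histidine tRNA, led them at 0.55 and 0.68.

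Genes that feed ribosome production were mixed. In the RNA polymerase I and III list 2 of 34 genes were at least 1.5-fold higher in both libraries, beside 2.78% of all genes, Polr2f (a subunit shared by all 3 polymerases) at 0.90 in Sun1_KO and 0.60 in Sun1_WT, and Polr2l (also shared) at 1.13 and 0.63. Cd3eap, a subunit particular to polymerase I, was at 0.58 in Sun1_KO and 0.88 in Sun1_WT, and the polymerase III subunit Polr3b was at −0.97 and −0.06. Nucleotide synthesis gave 6 of 35 genes higher in both, with medians of 0.36 and 0.58. Nme1 (chr11:93958925-93968272), a nucleoside diphosphate kinase, was at 288 CPM in members and 112 CPM in other nuclei of Sun1_KO, and at 267 and 142 CPM in Sun1_WT. Umps, which completes uridine monophosphate, was at 0.86 and 0.99.

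The polyamine and hypusine list, without Srm and Eif5a, had a median of −0.01 in Sun1_KO and 0.16 in Sun1_WT, and 1 of its 15 genes was at least 1.5-fold higher in both. That gene was Dohh, which completes the hypusine of Eif5a, at 27.7 CPM in members and 14.5 CPM in other nuclei of Sun1_KO, and at 39.6 and 21.5 CPM in Sun1_WT. Odc1, the first enzyme of polyamine synthesis, was at 221 and 148 CPM in Sun1_KO and at 323 and 198 CPM in Sun1_WT, 0.58 (0.41 to 0.75) and 0.71 (0.64 to 0.78) on the log2 scale. Sat1, which acetylates polyamines for breakdown and export, lay on the other side at −0.58 (−0.95 to −0.24) and −0.76 (−0.93 to −0.60).

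Myc RNA was modestly higher. It stood at 63.4 CPM in members (87 UMIs) and 42.4 CPM in other nuclei of Sun1_KO, and at 53.8 CPM (372 UMIs) and 40.5 CPM in Sun1_WT, which gave log2 ratios of 0.58 (0.24 to 0.90) and 0.41 (0.24 to 0.58). Of the 15 genes of the Myc network 2 were past 1.5-fold in both, Ruvbl1 (0.70 and 0.59) and Ruvbl2 (1.14 and 0.69), the paired ATPases of chromatin and snoRNP assembly complexes. The antagonist Mxd4 was at −0.70 in Sun1_KO and −0.50 in Sun1_WT. The list's median was −0.29 and −0.14. Genes upstream of or in the mTOR pathway stood near 0, with medians of 0.05 and 0.03 and none of 25 past 1.5-fold in both in either direction.

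Mitochondrial supply genes were higher in members. Of 36 import genes 12 were at least 1.5-fold higher in both libraries, beside 2.78% of all genes, with medians of 0.72 in Sun1_KO and 0.51 in Sun1_WT. Timm10 (chr2:84827021-84830213), a chaperone of the space between the membranes, was at 56.8 CPM in members and 22.9 CPM in other nuclei of Sun1_KO, and at 61.4 and 31.1 CPM in Sun1_WT, and its relative Timm8a1 was at 1.16 and 1.04 on the log2 scale. Of 42 mitochondrial ribosome genes 9 were past 1.5-fold in both, with medians of 0.77 and 0.43, and 0.51 in Sun1_KO with at least 3000 UMIs and 20000 accessibility counts. Of 50 nuclear genes of the respiratory chain 6 were so in both, 44 in Sun1_KO (11.7% of all genes) and 6 in Sun1_WT (5.12% of all genes), with medians of 1.07 in Sun1_KO and 0.42 in Sun1_WT. The Sun1_KO median was 0.58 with at least 3000 UMIs and 20000 accessibility counts. Cytochrome c (Cycs) was at 227 and 82.9 CPM in Sun1_KO, and at 209 and 114 CPM in Sun1_WT. Slc25a5 (chrX:36795597-36798808), an ADP/ATP carrier of the inner membrane, was at 165 CPM in members and 62.0 CPM in other nuclei of Sun1_KO, and at 353 and 189 CPM in Sun1_WT. RNA encoded by the mitochondrial genome itself did not go the same way, with a median of −0.49 in Sun1_KO and 0.08 in Sun1_WT over 13 genes.

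Protein quality control and RNA processing genes moved with the group as well. Of 33 chaperone genes 9 were at least 1.5-fold higher in both libraries, beside 2.78% of all genes, among them Cct5 of the chaperonin that folds actin and tubulin (1.10 in Sun1_KO and 0.72 in Sun1_WT) and the Hsp90 partner Fkbp4 (1.06 and 0.73). Of 33 proteasome genes 10 were, among them the core subunit Psmb5 (1.16 and 0.65) and the nuclear activator Psme3 (0.89 and 0.96), while the core subunit Psma7 (1.40 and 0.52) passed only in Sun1_KO. Of 35 splicing genes 10 were, led by the core Sm proteins Snrpf (1.52 and 0.68) and Snrpd3 (1.36 and 0.76). None of these 3 lists held a gene lower in both. In the nuclear transport list only Ranbp1 (1.26 and 0.82) and Ran (0.93 and 0.76), which drive the GTP cycle of transport, were past 1.5-fold in both, and the nucleoporin Nup160 was at −0.84 and −0.03.

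Among the 12 higher genes with the interval bound farthest from no change, Rrp9, Nhp2, Nop16 and Lyar are ribosome assembly genes and Timm8a1, Timm10 and Slc25a5 mitochondrial ones, described above with Nme1. Mcrip2 (chr17:25863698-25868740), led them at 27.7 CPM in members and 8.70 CPM in other nuclei of Sun1_KO, and at 21.8 and 8.34 CPM in Sun1_WT. Its log2 ratio was 1.66 (1.13 to 2.18) in Sun1_KO and 1.38 (1.09 to 1.68) in Sun1_WT. The histone chaperone Set (chr2:30061996-30072577) was at 649 and 337 CPM in Sun1_KO and at 678 and 368 CPM in Sun1_WT. Eno3 (chr11:70653125-70662513), the enolase of muscle, was at 59.0 and 25.1 CPM in Sun1_KO and at 68.5 and 34.7 CPM in Sun1_WT. Hmox1, the haem oxygenase, stood at 2.36 in Sun1_KO and 1.20 in Sun1_WT, but 1 nucleus held 76.9% of its Sun1_KO and 78.3% of its Sun1_WT UMIs among members, and its ratio turned negative under several other settings.

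**Figure D3:**
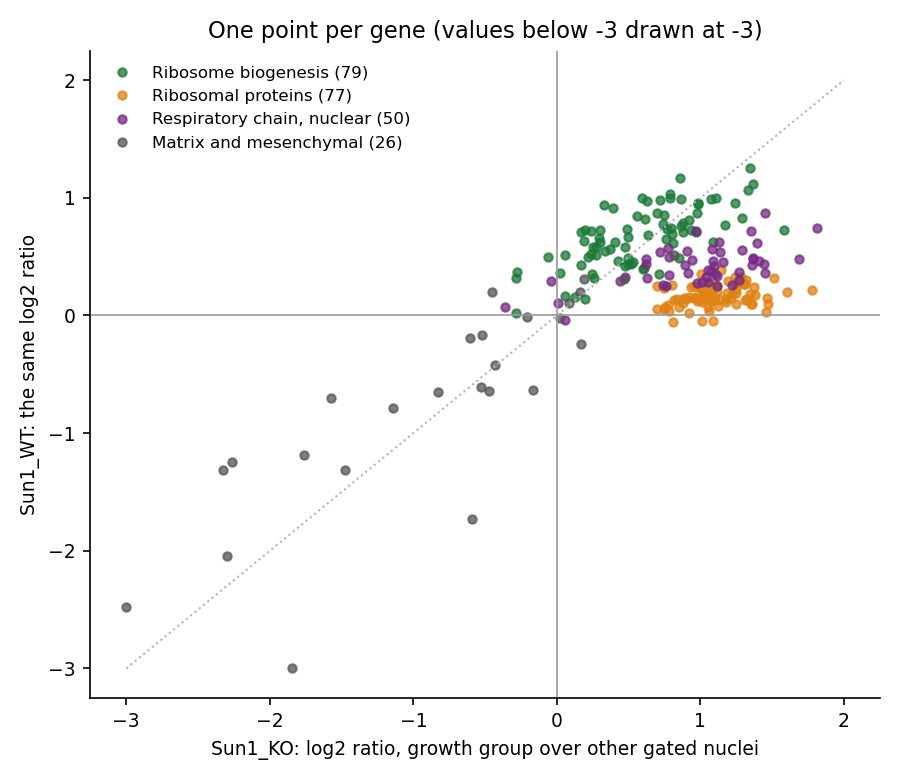
Log2 ratio of the growth group over other gated nuclei for each gene of 4 lists, in Sun1_KO (horizontal axis) and Sun1_WT (vertical axis), with values below −3 drawn at −3. Ribosome biogenesis genes lie above 0 in both libraries in 75 of 79 cases, ribosomal protein genes lie far to the right but near 0 on the vertical axis, and 18 of 26 matrix genes lie below 0 in both.

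The lists of cell division were not higher in members of both libraries. Of 38 G2/M genes none was higher in both libraries and 3 were lower in both, close to the 6.35% of all genes. In Sun1_KO alone 25 were lower, beside 26.4% of all genes, and 3 in Sun1_WT, beside 8.13%. The median log2 ratio was −0.84 in Sun1_KO and −0.30 in Sun1_WT. Kif11, the motor that separates spindle poles, was at 43.7 CPM in members and 125 CPM in other nuclei of Sun1_KO, and at 74.0 and 112 CPM in Sun1_WT. In Sun1_KO nuclei with at least 3000 UMIs and 20000 accessibility counts the median was −1.41. Over the alternatives the Sun1_KO median ran from −1.41 to −0.31. Of 46 S-phase genes 1 was higher in both, Cdca7, a regulator of DNA methylation, at 0.94 and 0.82. In Sun1_WT 12 of the 46 passed 1.5-fold upward, the list's median was 0.38 and the replication helicase subunit Mcm2 was at 113 CPM in members and 62.6 CPM in others. In Sun1_KO 12 were at least 1.5-fold lower, a share close to the 26.4% of all genes, and the median of −0.10 lay above that of all genes and ran from −0.22 to 0.10 over the alternatives. Members varied widely, as the G2/M sum per 10000 UMIs ran from 0 through a median of 11.3 to 157 in Sun1_KO members. In Sun1_WT members it ran from 0 through 14.4 to 191. The median of other gated nuclei was 11.1 in Sun1_KO and 8.74 in Sun1_WT, so the median member was not lower. The upper quartile was lower in members, at 28.7 against 62.4 in Sun1_KO and 49.96 against 66.7 in Sun1_WT. Of 16 base excision repair genes beside Ung, Apex1, which cuts the abasic site that Ung leaves, was higher at 1.02 and 0.83, and the glycosylase gene Neil3 was lower at −1.94 and −0.69.

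The lower genes were led by matrix genes. Of 26 genes of the matrix and mesenchymal list 11 were at least 1.5-fold lower in both libraries, beside 6.35% of all genes, and none was higher, with medians of −0.52 in Sun1_KO and −0.62 in Sun1_WT. With at least 3000 UMIs and 20000 accessibility counts the Sun1_KO median was −0.34. Summed RNA of the 26 genes differed less, at 6047 CPM in members and 7476 CPM in other nuclei of Sun1_KO, and 8820 and 9805 CPM in Sun1_WT. Per nucleus, the sum of the whole list per 10000 UMIs had medians of 56.3 in members and 60.9 in others of Sun1_KO, and 81.9 and 86.9 in Sun1_WT. Decorin (Dcn, chr10:97479500-97518163), a small proteoglycan that binds collagen, was at 31.3 CPM in members and 154 CPM in other nuclei of Sun1_KO, and at 107 and 442 CPM in Sun1_WT. Its log2 ratio was −2.30 (−2.77 to −1.86) in Sun1_KO and −2.04 (−2.15 to −1.94) in Sun1_WT. Asporin (Aspn, chr13:49544443-49567565), of the same family, was at 5.10 and 83.1 CPM in Sun1_KO and at 11.4 and 252 CPM in Sun1_WT. Mgp (chr6:136872435-136875823), an inhibitor of calcification, was at 35.7 and 223 CPM in Sun1_KO and at 55.8 and 322 CPM in Sun1_WT. Not all of the list was low, as vimentin (Vim) was at 0.47 in Sun1_KO and 0.31 in Sun1_WT and Timp1, an inhibitor of metalloproteases, at 0.82 and 0.51.

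Much of this RNA lay in few nuclei outside the group. The 5% of other nuclei with most UMIs of a gene held 60.0% of Aspn UMIs in Sun1_KO and 51.8% in Sun1_WT, and for Mgp 65.2% and 58.3%. Ceruloplasmin (Cp, chr3:19956933-20009750), the ferroxidase of plasma, was at 13.8 CPM in members and 150 CPM in others of Sun1_KO, and at 16.9 and 163 CPM in Sun1_WT. Dio2, which activates thyroid hormone, was at −4.14 and −3.23 on the log2 scale, the stromelysin Mmp3 at −4.09 and −4.42, and the proteoglycan Ogn at −2.94 and −2.62. Of the other genes in this set of 12, Pdzrn3 had no UMI in members of either library. With a floor of 3 counts per group it was 7.85-fold lower in Sun1_KO and 9.28-fold lower in Sun1_WT. Its UMIs outside the group came from 23 of 1263 Sun1_KO and 26 of 1950 Sun1_WT nuclei. Few members would carry any at that rate, so these folds are not lower bounds. Meg3, Col12a1, Col10a1 and Ebf1 had 0 or 1 UMI in Sun1_KO members and 1 to 12 in Sun1_WT members. Among the other nuclei Meg3 was found in 16 of Sun1_KO and 9 of Sun1_WT, and Ebf1 in 28 and 21, so their absence is as uncertain. The fibroblast and mural markers given above were lower in members too, and their part in the matrix result was not tested.

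The nuclear long non-coding RNAs Malat1 and Neat1, named after their values were seen, were lower in members. Malat1, which gathers in nuclear speckles, was at 4928 CPM in members and 14174 CPM in other nuclei of Sun1_KO, and at 9445 and 19215 CPM in Sun1_WT. Neat1, the scaffold of paraspeckles, was at 93.2 and 191 CPM in Sun1_KO and at 97.5 and 149 CPM in Sun1_WT. Of the list of 12 such RNAs 4 were at least 1.5-fold lower in both, but its median was −0.16 in Sun1_KO and −0.09 in Sun1_WT, not below the all-gene median in Sun1_KO, and it ran from −0.22 to 0.15 in Sun1_KO over the alternatives. Gene length moved with the ratio too. The median log2 ratio of genes under 5 kb was 0.46 in Sun1_KO and 0.21 in Sun1_WT, and that of genes over 100 kb was −0.65 and −0.28. Ribosome biogenesis genes of 5 to 20 kb (41 genes) had a median of 0.76 in Sun1_KO and 0.76 in Sun1_WT, against 0.08 and 0.13 for all genes of that length. Those of 20 to 100 kb (27 genes) had 0.28 and 0.52, against −0.32 and −0.08. The part of Malat1, of gene length and of what moves with them in the other results was not tested.

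Stress and signalling lists held few genes past 1.5-fold in both libraries, where 2.78% of all genes were higher and 6.35% lower. In the list of 27 genes of hypoxia and glycolysis, 5 were 1.5-fold lower or more in both, among them the hypoxia-induced demethylase Kdm3a (−1.04 and −0.91) and Pfkfb4 (−1.18 and −0.67). The list's median was 0.14 in Sun1_KO, from −0.28 to 0.34 over the alternatives, and −0.62 in Sun1_WT, and the glycolytic enzyme Gapdh was at 1305 CPM in members and 473 CPM in others of Sun1_KO but at 1035 and 897 CPM in Sun1_WT. In the serine and stress-response list 2 of 22 genes were higher in both. Phgdh, the first enzyme of serine synthesis, was one, at 347 and 151 CPM in Sun1_KO and at 335 and 185 CPM in Sun1_WT. Of 29 interferon genes 1 was lower in both, Rsad2 (−1.51 and −0.80), of 18 YAP and TEAD genes 2 were lower, Ccn1 (−1.29 and −1.07) and Ccn2 (−0.79 and −1.59). Of 19 p53 targets 1 was higher, Aen (0.68 and 0.86), and 2 were lower, Trp53inp1 (−1.55 and −2.67) and Sesn1 (−0.85 and −0.82). Of 22 immediate early genes 2 were lower, among them the phosphatase gene Dusp1 at 2 UMIs in Sun1_KO members and 40 in Sun1_WT members.

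The same lists were also followed along the whole range of the score. When all gated nuclei of a library were put in deciles by score, ribosome biogenesis RNA was 2993 CPM in the lowest decile and 8035 CPM in the highest of Sun1_KO, and 3100 and 9199 CPM in Sun1_WT, higher in every next decile. Malat1 went the other way in every decile, at 23467 CPM in the lowest and 5938 CPM in the highest of Sun1_KO, and 30166 and 8378 CPM in Sun1_WT. Ribosomal protein RNA was 61093 CPM in the lowest decile, 100905 CPM in the ninth and 141220 CPM in the highest of Sun1_KO, and 109685, 144468 and 146753 CPM in Sun1_WT. Matrix RNA was 9935 CPM in the lowest decile, 6424 CPM in decile 7 and 6296 CPM in the highest of Sun1_KO, and 12104, 9132 and 8884 CPM in Sun1_WT. It thus differed little over the upper deciles and was not particular to the growth group. The median depth of the deciles lay between 9754 and 18645.5 UMIs in Sun1_KO and between 10040 and 20431 UMIs in Sun1_WT, lowest in the lowest decile.

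**Figure D4:**
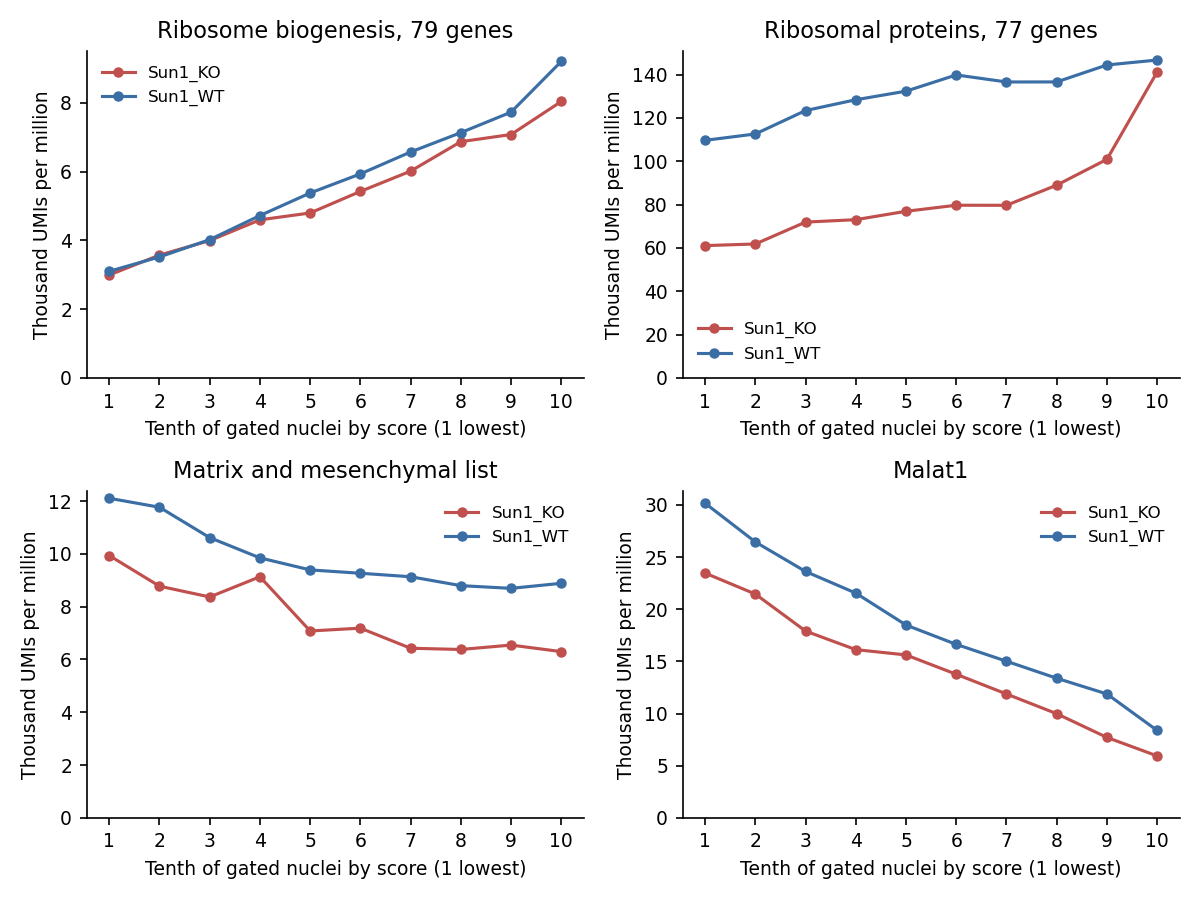
Summed RNA (CPM, drawn in units of 1000, vertical axis) of 3 gene lists and of Malat1 in deciles of gated nuclei ordered by score (horizontal axis, 1 lowest), in Sun1_KO (red) and Sun1_WT (blue). Ribosome biogenesis climbs steadily in both libraries, from 2993 to 8035 CPM in Sun1_KO and from 3100 to 9199 CPM in Sun1_WT across the deciles, Malat1 declines, and ribosomal protein RNA of Sun1_KO comes closest to that of Sun1_WT in the highest decile (141220 and 146753 CPM).

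Within the growth group the genotypes were compared over 10243 genes with at least 50 UMIs in members of both libraries together, as log2 ratios of Sun1_KO over Sun1_WT. At least 2-fold higher in Sun1_KO were 109 (1.06%), and at least 2-fold lower 419 (4.09%). In the other gated nuclei 0.732% of the same genes were higher and 2.32% lower. Members held 1372862 non-mitochondrial UMIs in Sun1_KO and 6919904 in Sun1_WT, and other nuclei 20806797 and 33562855. Counting error was therefore larger in members, and its part in their larger 2-fold shares was not tested. At 1.5-fold the shares were 6% higher and 11.9% lower in the group, and 7.42% and 8.12% in the others. Among ribosome biogenesis genes 1 passed 1.5-fold upward and 3 passed it downward in Sun1_KO members, and the list's median log2 ratio was −0.07 in members and −0.01 in other nuclei. The scored genes lay between −0.07 and 0.20 in members, apart from Ung at 0.40 (−0.22 to 1.00), and between −0.44 and −0.06 in other nuclei. Members of both genotypes had passed the same limit on the sum of these genes, so their similar levels follow from the rule and are descriptions. The all-gene median was −0.05 in members and 0.14 in other nuclei.

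Genes far higher in Sun1_KO members were mostly as high in the other Sun1_KO nuclei. Ift81 (chr5:122540265-122614546), a protein of intraflagellar transport, was at 219 CPM in Sun1_KO members and 31.1 CPM in Sun1_WT members, a log2 ratio of 2.81 (2.56 to 3.07), and of 2.81 in other nuclei. On the same scale Lpcat4, a lysophospholipid acyltransferase, was at 2.84 in members and 1.87 in others, and the cell-surface proteoglycan Gpc5 was at 2.42 in members, and at 60.7 CPM in Sun1_KO and 15.6 CPM in Sun1_WT other nuclei. Csmd3 was at 2.34 and 2.26, Arhgap15 at 2.12 and 2.83, Cpeb1 at 1.99 and 1.82, and Cmss1 at 1.44 and 1.10. Tmsb10 (chr6:72957347-72958748), which binds actin monomers, was at 1135 CPM in Sun1_KO members and 405 CPM in Sun1_WT members, 1.48 (1.39 to 1.58) on the log2 scale, and at 308 CPM in other nuclei of both genotypes. With at least 3000 UMIs and 20000 accessibility counts its genotype ratio in members was 0.15.

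Genes absent from Sun1_KO members were mostly low in all Sun1_KO tumour nuclei. Cask (chrX:13517080-13846783), a scaffold kinase of cell junctions, had no UMI in Sun1_KO members and 289 in Sun1_WT members. With a floor of 3 counts it was 19.1-fold lower, and its log2 ratio in other nuclei was −3.13. By the same floor Tmlhe (0 and 195 UMIs), the first enzyme of carnitine synthesis, was 12.9-fold lower, and Zfp978 (0 and 142 UMIs) 9.39-fold lower. Aldh3a1 (0 and 83 UMIs) was 5.49-fold lower, and Agxt2 and Il13ra1 (0 and 69 UMIs each) 4.56-fold lower. These folds are set by the floor and are not lower bounds. The intervals reach smaller differences, up to log2 ratios of −3.95 for Cask and −1.85 for Agxt2 and Il13ra1. Ccl2, a chemokine that draws monocytes, had 7 and 500 UMIs, −3.79 (−5.15 to −2.77), against −2.64 in other nuclei. Jade3 had 1 UMI in Sun1_KO members and 136 in Sun1_WT members, a ratio of −4.54, and a ratio of −0.35 in other nuclei. Its ratio in members was −1.04 with the limit set within each library and −1.29 with nuclei thinned to 3000 UMIs. Cask, Tmlhe, Il13ra1 and Jade3 lie on chromosome X.

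The ratio of the ratios showed where members and other nuclei differed most between genotypes. Rpl35 was 1.78 higher on the log2 scale in members than in other nuclei of Sun1_KO and 0.22 higher in Sun1_WT, Tmsb10 1.88 and 0.40, and Rps15a 1.46 and 0.03. With at least 3000 UMIs and 20000 accessibility counts these Sun1_KO values were 0.70 for Rpl35, 0.63 for Tmsb10 and 0.42 for Rps15a. Ribosomal protein genes as a list had a median Sun1_KO over Sun1_WT log2 ratio of 0.11 in members and −0.77 in other nuclei, and the respiratory chain list 0.07 and −0.53. With at least 3000 UMIs and 20000 accessibility counts the ribosomal protein median in members was −0.45 and that of the respiratory chain −0.38, both of the opposite sign. At the low end, Cask, Patl2, Slco2a1 and Igflr1 had no UMI in Sun1_KO members and 289, 48, 20 and 15 in Sun1_WT members. Over the alternatives their Sun1_KO ratios of members over other nuclei rose as high as −3.55, −0.40, −1.22 and −0.87. Igfbp7 had 4 UMIs in members of each genotype, too few to place it. The G2/M list was at −0.59 in members and −0.09 in other nuclei, with 19 of 38 genes at least 1.5-fold lower in Sun1_KO members, beside 11.9% of all genes.

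Accessibility at gene starts, which the rule did not use, differed little between members and other gated nuclei. Of 9453 loci with at least 200 counts in each library, 55 (0.582%) were at least 25% above other nuclei in members of both libraries. At 61 (0.645%) the other nuclei were at least 25% above members in both, and the median log2 ratio of all loci was −0.07 in Sun1_KO and −0.06 in Sun1_WT. None of the 67 ribosome biogenesis loci passed in either direction, and their median was −0.05 in Sun1_KO and −0.04 in Sun1_WT. At the start of C1qbp the counts were 30.6 per 1000000 counts in members and 25.9 in other nuclei of Sun1_KO, and 26.4 and 26.1 in Sun1_WT. At Npm3 they were 21.7 and 22.5 in Sun1_KO and 22.2 and 21.4 in Sun1_WT, and at Eif5a 60.4 and 66.2 in Sun1_KO and 65.1 and 71.4 in Sun1_WT. Cacybp stood at 66.5 and 74.1 in Sun1_KO and 70.9 and 78.0 in Sun1_WT. Tomm5 went opposite ways, at 21.4 and 18.9 in Sun1_KO and 15.1 and 18.7 in Sun1_WT. None of these differed by that much in both libraries, and the starts of Srm and Ung were not analysed here.

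Genes higher in RNA had accessibility near the median of all loci. The 242 measured loci of genes at least 1.5-fold higher in RNA in both libraries had a median of −0.04 in Sun1_KO and −0.04 in Sun1_WT, and none was at least 25% higher. The 395 loci of genes lower in RNA had medians of −0.10 in both, and at 13 the other nuclei were at least 25% above members in both. The loci lower in members by that measure included those of Aspn, Cp and Ogn. In Sun1_KO members Aspn had 10 counts and Ogn 18, with intervals that crossed 0. The loci of other lower genes named above did not pass in both. In Sun1_KO and Sun1_WT Dio2 was at −0.04 and −0.59, Mmp3 at −0.12 and −0.67, and Col10a1 at 0.84 and −1.12. Even numbers made up most accessibility values, 75.5% of them in Sun1_WT, so counts at a locus are not independent and intervals on them would be too narrow. Across 7906 genes the RNA and accessibility ratios had a Pearson correlation of 0.05 in Sun1_KO and 0.24 in Sun1_WT.

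**Figure D5:**
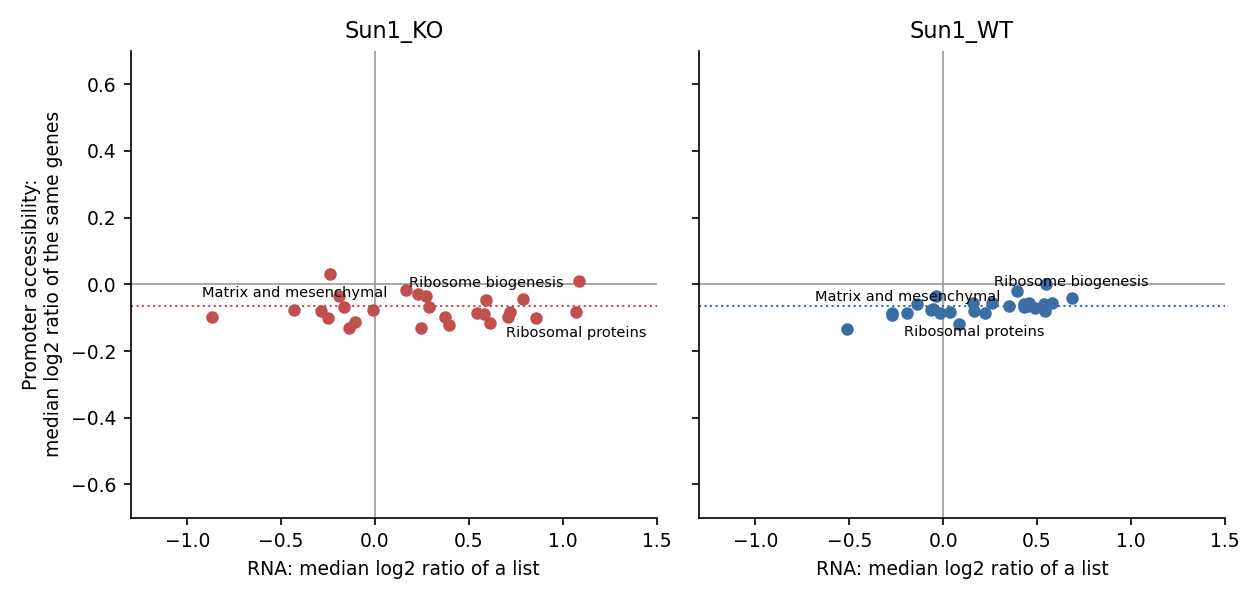
Median log2 ratio of RNA (horizontal axis) against that of accessibility at the starts of the same genes (vertical axis), growth group over other gated nuclei, with 1 point per gene list, for Sun1_KO on the left and Sun1_WT on the right, and the median of all loci dotted (−0.07 and −0.06). The RNA medians span more than 1 on the log2 scale while every accessibility median lies close to the dotted line.

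In the authors' deposited table comparing the libraries, whose choice of nuclei is not given, the log2 fold changes of 6 scored genes ran from −0.11 for Tomm5 to 0.06 for Npm3. By the authors' DESeq2 Wald test Ung had 0.49 with an adjusted p of 0.0612, and Sun1 −0.35 with an adjusted p of 3.5e-06. With 1 RNA library per genotype, these p-values cannot measure spread between replicate libraries and are no test of the genotype. The median over the 10156 genes of the authors' deposited table was 0.59, so a value near 0 there lies below the median gene. The sign of Sun1 follows Sun1_KO over Sun1_WT, as in the counts.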

How the data were processed

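RNA and chromatin accessibility were measured in the same nuclei of Sun1_KO and Sun1_WT CT26 tumours. The deposited matrices hold whole-number counts of UMIs per gene and of accessibility counts per peak on mm10, and the submitters' processing notes list Seurat, Signac, FastQC and Cell Ranger with its ARC version, without version numbers. The authors' deposited table gives a mean signal, a log2 fold change and p-values per gene, per the file headers.

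Nuclei were filtered, gated and scored as described above, with Python 3.11.15, numpy 2.4.6, scipy 1.17.1, pandas 2.3.3 and scanpy 1.11.5. UMIs were summed per group and library, divided by non-mitochondrial UMIs, and compared as log2 ratios with a pseudocount of 0.5. RNA depth summed to 1372862 UMIs in Sun1_KO and 6919904 in Sun1_WT members without mitochondrial genes, so Sun1_KO values are the less precise. Intervals were exact Poisson for levels, conditional binomial for ratios and Clopper-Pearson for shares. Those of the share ratio and of the ratio of ratios were log-normal. TMM factors came from edgeR 4.0.16, used for scaling only.

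The members and gene lists were chosen with earlier results of these data known. Genes were named by rule: the scored genes, Sun1 and Hmga2, the 12 highest and 12 lowest against other gated nuclei by interval bound, the 8 highest and lowest between genotypes, the 5 highest and lowest by the ratio of ratios, and up to 3 at each end of a list. Further list members, Malat1, Neat1 and Myc were named after their values were seen. The steps were tested on simulated counts. Alternatives changed the score, gate, depth, minimum, scaling and accessibility counting.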

Additional observations from a re-analysis of the deposited data

Results flagged for a closer look

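Cryab, a small heat-shock protein, went opposite ways in the libraries. It was at 37.9 CPM in members and 6.73 CPM in other gated nuclei of Sun1_KO, a log2 ratio of 2.49, and at 15.6 and 23.2 CPM in Sun1_WT, a ratio of −0.57. The ratios differed by 3.05 (2.51 to 3.60, counting error only), and with 1 library per genotype the difference was not tested. A single nucleus held 61.5% of the 52 UMIs in Sun1_KO members, and 7 members had any. The Sun1_KO ratio ran from 0.56 to 4.40 over the alternatives.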

How the results depend on the processing

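No paired analysis was possible because each genotype has 1 library of each kind. The share of gated nuclei in the growth group was 0.384 times as high in Sun1_KO as in Sun1_WT, and it was 0.999 with the highest 12% taken within each library (by construction), 0.536 with nuclei thinned to 3000 UMIs, 0.777 with the stricter gate and 0.276 with at least 3000 UMIs and 20000 accessibility counts, a setting added after seeing the data. Against 306 and 698 genes higher and lower in members of both libraries, thinning gave 87 and 382, and the higher genes numbered 469 (TMM), 486 (median of ratios) and 552 (minimum of 1 UMI). Against 109 and 419 genes higher and lower in Sun1_KO members, 217 were lower with the limit set within libraries, 72 higher with the stricter gate, 289 higher with the added depth limits, 44 and 169 with the minimum raised 3 times, 1495 and 862 with no minimum, and 523 and 688 with nuclei weighted equally (also added). Against 55 and 61 loci, 179 were lower with the stricter gate, 7 and 40 passed with binarised counts, 35 were higher with halved counts, and 12 and 12 passed with a minimum of 1000. Hmox1 turned to −1.55, −1.58, −1.15, −1.64, −0.93 and −0.55 in Sun1_WT (highest 8%, limits within libraries, thinned, score without Eif5a, stricter gate, divided UMIs), and to −0.078 and −0.17 in Sun1_KO (without Eif5a, added depth limits). The macrophage list's genotype median turned to 0.10, 0.024 and 0.18 (highest 20%, thinned, added depth limits), Slco2a1 to 0.11 in Sun1_WT (thinned), Ebf1 to 0.00435 in Sun1_WT and Igfbp7 to 0.90 in Sun1_KO (stricter gate), and Meg3 to 0.85 in Sun1_WT (divided UMIs). The cause was not tested. Ribosome biogenesis kept medians of 0.45 to 0.80 in Sun1_KO and 0.52 to 0.73 in Sun1_WT over all settings. Thinning kept 48.9% of members and leaving out Eif5a 74.7%.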
